A study of Mus musculus with 2 samples.

Results

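Gata3 occupancy was examined at 10 genes of the transforming growth factor β (TGF-β) pathway, of 21938 protein-coding genes annotated in GENCODE release M21 of the mouse genome (GRCm38). The genes were chosen by name: *Tgfb1*, *Tgfbr1*, *Tgfbr2*, *Tgfbr3*, *Smad2*, *Smad3*, *Smad4*, *Smad7*, *Ski* and *Skil*. A locus was the gene body plus 20 kb either side, and the 10 loci together covered 1124 kb. The data were 2 Gata3 ChIP-seq libraries, numbered 1 and 2 as replicates of one condition, from mouse TH2 cells differentiated in culture. The paper's TH2 cultures started from splenic naïve CD4+ T cells, activated through CD3 and CD28 with IL-2. IL-4 and a neutralising antibody against IFN-γ were added to polarise them. TH2 cells are the CD4+ T helper cells that make type-2 cytokines, and Gata3 is the transcription factor that specifies them. Crosslinked chromatin was pulled down with antibody D13C9 against Gata3 and then tagmented on the beads (ChIPmentation). There was a single condition with no treatment to compare, and a control library (input or IgG) was not used here. Each library was read against its own read density, so enrichment not due to Gata3 could not be told from occupancy. The labels give neither strain nor age nor genotype, although the term CD4cre is attached to both libraries where the reads were deposited. The extraction protocol in the labels speaks of ILC2, the innate counterpart of TH2 cells, whereas the source and cell type fields give TH2 cells. Nothing in the labels says that the libraries came from separate animals or cultures, so the spread between them may be technical.

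TGF-β is a cytokine that is secreted in a latent form and freed from it by, among others, αv integrins. The active ligand binds the type II receptor *Tgfbr2*, which phosphorylates the type I receptor *Tgfbr1*, and the coreceptor *Tgfbr3* helps to present it. *Tgfbr1* then phosphorylates Smad2 and Smad3, which join Smad4 and act on genes in the nucleus, while Smad7 blocks the receptor and the corepressors Ski and SnoN (the product of *Skil*) hold Smad complexes in check. In T cells the pathway is known for restraining effector responses, TH2 responses included, and for inducing regulatory T cells and tissue-resident programmes.

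Depth was 40526613 reads in library 1 and 24970952 in library 2. Those on chromosomes 1 to 19, X and Y, the ones counted, numbered 40504814 and 24959052. A window of 200 bp therefore held 2.97 reads on average in library 1 and 1.83 in library 2. Within a library 0 reads shared a 5′ end and strand with another, so repeat reads had been removed and the height of a peak is limited by that. The read names carry another sequencing instrument in each library, so library and sequencing run cannot be told apart.

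A peak is a stretch of 200-bp windows that held more reads than the local background by an exact Poisson test (one-sided), at a Benjamini-Hochberg q of 0.01 over all windows with a read. The background was the highest of the library mean and the 5-kb and 10-kb means around the window. Shared peaks are those called in both libraries that overlap by at least 1 bp. Peak height is given in RPM, the reads in the window at the summit scaled to 1000000 reads of the library, each library read at its own summit and with a 95% exact Poisson interval that covers counting error only. The percentile of a peak is its place among all 23806 shared peaks of the genome by the lower of its heights in the libraries.

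ChIP-seq gives no expression, and the label of the cells could only be set against occupancy at genes that mark TH2 cells: *Gata3* had 4 shared peaks in its locus, *Il4* 4, *Il5* 5 and *Il13* 3, each gene with 1 of them at a promoter (within 2 kb of a protein-coding transcript start). Over all protein-coding genes 54.8% had a shared peak in the locus and 14.5% at a promoter. The loci of *Il4* and *Il13* overlap and share their tallest peak, so their counts are not separate. In the gene body lay 3 of the shared peaks of *Gata3*, 2 of *Il4* and 0 of *Il5* and *Il13*. No library of ILC2 was among the data, so these counts cannot tell TH2 cells from ILC2.

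All 10 TGF-β pathway genes had at least 1 shared peak in the locus, 34 in all, against 54.8% of protein-coding genes. The windows above background made up 0.963% of those tested in library 1 and 0.391% in library 2. Shared peaks were spaced at 3.03 per 100 kb over the 10 loci, against 1.25 per 100 kb over the loci of all protein-coding genes and 0.873 over the genome. *Tgfbr3* had 9 shared peaks, *Smad3* 6, *Smad4* 4, *Tgfbr2*, *Smad2* and *Skil* 3 each, *Tgfb1* and *Tgfbr1* 2 each, and *Smad7* and *Ski* 1 each. Most of the shared peaks lay inside the genes. Of the 34 peaks 26 were in an intron, 1 in a coding exon, 5 upstream and 2 downstream of the gene. The member's own gene body thus held 79.4% of the members' peaks. In the loci of all protein-coding genes 72.1% of shared peaks lay in a gene body. The latter share counts the body of any protein-coding gene, so the 2 are not counted alike. Of the gene-body peaks over all genes 86.6% were in introns. A shared peak in the gene body was found for 9 of the 10 members, *Ski* being the exception, against 29.4% of protein-coding genes. A shared promoter peak, within 2 kb of any protein-coding transcript start of the gene, was found for 2 members (*Smad3* and *Skil*), against 14.5%. The promoter count is thus close to the background share. First introns held 14 of the 27 gene-body peaks (51.9%), against 30.2% of gene-body peaks over all genes. The genes ranged from 18.1 kb (*Tgfb1*) to 183 kb (*Tgfbr3*), and a longer gene has more room for peaks, so these shares describe the loci and are not a test of the list.

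**Figure D1:**
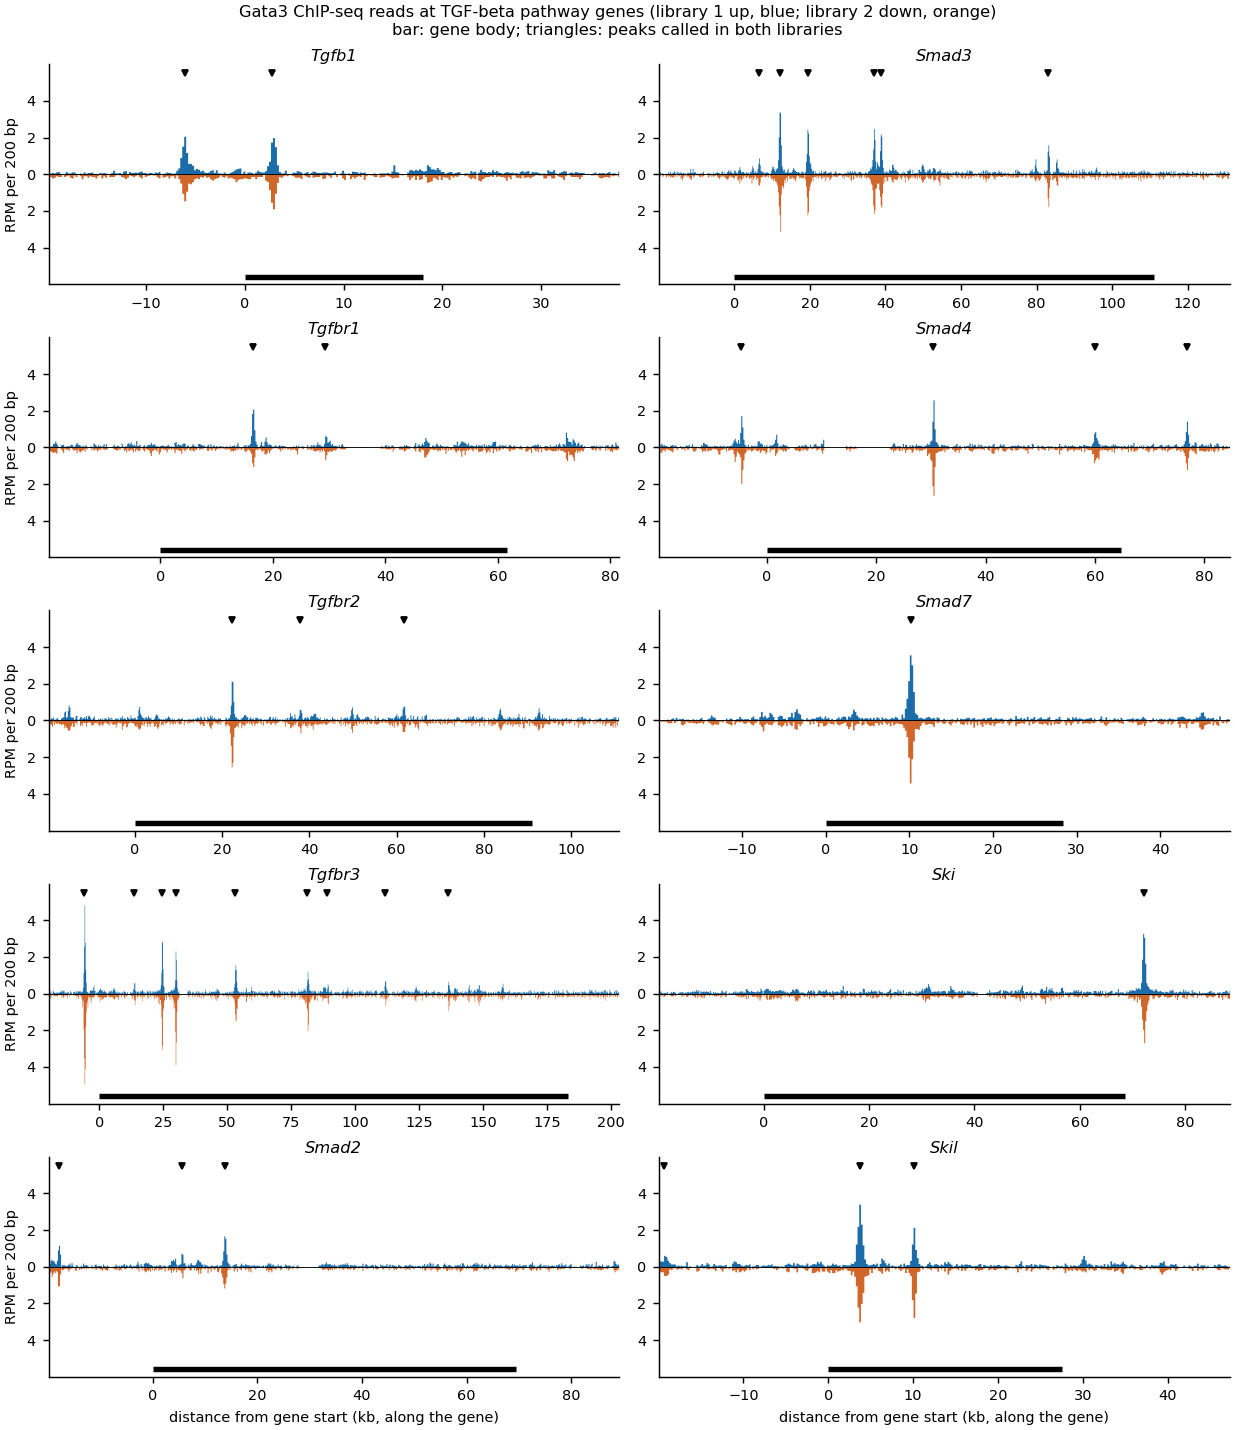
Reads in 200-bp windows in RPM along each of the 10 loci (y axis) against the distance from the gene start in kb (x axis, read in the direction of transcription), library 1 in blue and library 2 in orange. The tallest signal is upstream of *Tgfbr3*, the 6 shared peaks of *Smad3* spread over intron 1, and stretches without reads, the longest of 6.27 kb in *Smad4*, are visible as gaps.

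The genes were ranked by their tallest shared peak, taken at the lower of its heights in the libraries. The order was *Tgfbr3*, *Smad3*, *Smad7*, *Skil*, *Ski*, *Smad4*, *Tgfbr2*, *Tgfb1*, *Smad2* and *Tgfbr1*, with *Smad7* and *Skil* level at 3.33 RPM. Either library alone orders them otherwise. In library 1 *Tgfbr1* (2.37 RPM) exceeded *Tgfb1* (2.12 RPM), and in library 2 *Tgfbr2* (2.84 RPM) exceeded *Ski* (2.64 RPM). Neighbours in this order had overlapping intervals in both libraries, except that *Tgfbr3* stood apart from *Smad3* in library 2. All protein-coding genes were ranked by the lower height of their tallest shared peak as well, a gene without one standing last. The percentile among genes was 99.6 for *Tgfbr3*, 93.3 for *Tgfbr2*, 88.7 for *Tgfb1*, 79.7 for *Smad2* and 73.1 for *Tgfbr1*. The other members lay between *Tgfbr3* and *Tgfbr2*. A gene with more peaks has more room for a tall one. Over all 34 peaks the lower height had a median of 1.48 RPM, against 0.801 RPM over all shared peaks, and 24 of the 34 exceeded the latter. Heights ranged from 0.568 to 4.64 RPM in library 1 and from 0.601 to 5.17 RPM in library 2.

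The sequences below lie under the tallest shared peak of *Tgfbr3*, *Smad3*, *Skil*, *Tgfbr2* and *Tgfb1*. They are not the 5 tallest of the order above, which places *Smad7*, *Ski* and *Smad4* ahead of *Tgfbr2*. They are printed so that the letters GATA factors recognise can be read beside the summits. They are plus-strand reference sequence of GRCm38. Capitals mark AGATAA or AGATAG or TGATAA or TGATAG on either strand (GATA letters) and TGACTCA or TGAGTCA (AP-1 letters, recognised by Jun and Fos family factors).
Tgfbr3, upstream, chr5:107295375-107295465: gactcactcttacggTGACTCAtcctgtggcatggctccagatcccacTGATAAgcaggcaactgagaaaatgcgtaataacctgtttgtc
Smad3, intron 1, chr9:63745935-63746040: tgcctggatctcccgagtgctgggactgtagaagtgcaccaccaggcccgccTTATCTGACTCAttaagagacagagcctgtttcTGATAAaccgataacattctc
Skil, intron 2, chr3:31098698-31098784: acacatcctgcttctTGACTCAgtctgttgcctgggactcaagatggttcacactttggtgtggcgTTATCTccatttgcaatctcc
Tgfbr2, intron 1, chr9:116153026-116153086: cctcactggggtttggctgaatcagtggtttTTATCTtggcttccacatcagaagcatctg
Tgfb1, intron 1, chr7:25689785-25689871: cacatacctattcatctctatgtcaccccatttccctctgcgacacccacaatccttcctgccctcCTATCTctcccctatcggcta
All 5 hold GATA letters, as did most shared peaks of the genome, and those at *Tgfbr3*, *Smad3* and *Skil* hold AP-1 letters as well. In *Smad3* a GATA and an AP-1 match overlap by their shared T. A match of letters is a description of the sequence and does not show a bound site.

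*Tgfb1* encodes the TGF-β ligand most widely made by lymphocytes and is transcribed from the plus strand of chromosome 7, between positions 25687002 and 25705077. A peak in intron 1, 2.80 kb after the start, reached 2.12 RPM (1.70 to 2.62, 86 reads) in library 1 and 1.88 RPM (1.38 to 2.5, 47 reads) in library 2. It was 5.81-fold over the local background in library 1 and 5.54-fold in library 2, at the 88.6 percentile. A second peak 6.10 kb upstream reached 2.1 RPM in library 1 and 1.44 RPM in library 2, with overlapping intervals. That peak lay 44 bp from a start of *B9d2*, a gene of the ciliary transition zone, and inside the body of *B9d2*, so that it is a promoter peak of the neighbour and only a distal one of *Tgfb1*. The 2-kb stretch centred on the start of *Tgfb1* held 1.60 RPM in library 1 and 2.28 RPM in library 2, at the 74.3 and 87.7 percentiles of all protein-coding genes, without reaching a shared peak.

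*Tgfbr2* and *Tgfbr1*, the signalling receptors, had shared peaks in introns only. *Tgfbr2* is transcribed from the minus strand of chromosome 9, between positions 116084293 and 116175360. Its tallest peak, in intron 1 and 22.3 kb after the start, reached 2.37 RPM (1.92 to 2.89, 96 reads) in library 1 and 2.84 RPM (2.22 to 3.59, 71 reads) in library 2. The intervals overlapped, and the summit had GATA letters 9 bp away. The peak was 6.67-fold and 5.92-fold over the local background, with exact Poisson p-values (one-sided) of 1.1e-45 and 3.6e-31. The other shared peaks of *Tgfbr2* were low, at 0.691 and 0.761 RPM in intron 1 and at 0.815 and 0.721 RPM in intron 3, in libraries 1 and 2 respectively. Reads around the start of *Tgfbr2* were the highest of the 10 genes, at 2.47 and 2.64 RPM in the 2-kb stretch, against medians of 1.14 and 1.20 RPM over all protein-coding genes. They again formed no shared peak. Library 1 alone had a called peak near this start, in intron 1 at position 116174350, at 0.765 RPM. Library 2 held 0.561 RPM at the same place.

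*Tgfbr1* is transcribed from the plus strand of chromosome 4, between positions 47353222 and 47414931. Both of its shared peaks were in intron 1. The one 16.4 kb after the start reached 2.37 RPM (1.92 to 2.89, 96 reads) in library 1 but 1.04 RPM (0.680 to 1.53, 26 reads) in library 2, and the intervals did not overlap. Over the whole peak library 2 held 0.472 times the depth-scaled reads of library 1 (two-sided exact binomial test, adjusted p = 3.0e-06 over all shared peaks). The other, at 29.2 kb, was near the lower end of what was called, at 0.593 RPM in library 1 and 0.721 RPM in library 2, and its summit lay 2 bp from GATA letters. In library 1 alone the peak at 16.4 kb held as many reads as the tallest of *Tgfbr2*, and *Tgfbr1* stood last in the order by its height in library 2. Its windows had the lowest correlation between the libraries (Pearson r = 0.732 across 508 neighbouring windows, which are not replicates).

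*Tgfbr3*, the coreceptor also called betaglycan, is transcribed from the minus strand of chromosome 5, between positions 107106570 and 107289629 and is the longest of the 10 genes, at 183 kb. Its upstream peak, 5.82 kb before the start, whose sequence opens the set above, was the tallest of the 34. It held 188 reads in library 1, 4.64 RPM (4.0 to 5.35), and 129 reads in library 2, 5.17 RPM (4.32 to 6.14). This put it at the 99.7 percentile of all shared peaks, 7.32-fold and 5.69-fold over the local background, with exact Poisson p-values (one-sided) of 3.0e-94 and 2.6e-53. No other protein-coding start lay nearer to it than that of *Tgfbr3*.

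Intron 2 of *Tgfbr3* held the next tallest peaks of the gene. At 24.4 kb after the start the height was 3.09 RPM in library 1 and 3.65 RPM in library 2, and at 29.8 kb it was 2.39 RPM (1.94 to 2.92) and 3.89 RPM (3.15 to 4.74), each peak with 2 GATA matches. The latter was higher in library 2, with intervals that did not overlap and 97 reads in each library despite the difference in depth. Another peak of the intron, 53.1 kb after the start, reached 1.78 and 1.52 RPM, lay mostly in repeats (58.5% of the summit window) and had summits 250 bp apart in the libraries. The farthest of the remaining peaks, in intron 5 and 136 kb after the start, had 2 AP-1 matches and no GATA letters, at 0.716 RPM in library 1 and 1.08 RPM in library 2. A peak over coding exon 4, the only 1 of the 34 in an exon, reached 0.716 and 0.721 RPM. The remaining 3 peaks of *Tgfbr3* lay in introns 1 and 3 and ranged from 0.568 to 1.23 RPM in library 1 and from 0.641 to 2.08 RPM in library 2.

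**Figure D2:**
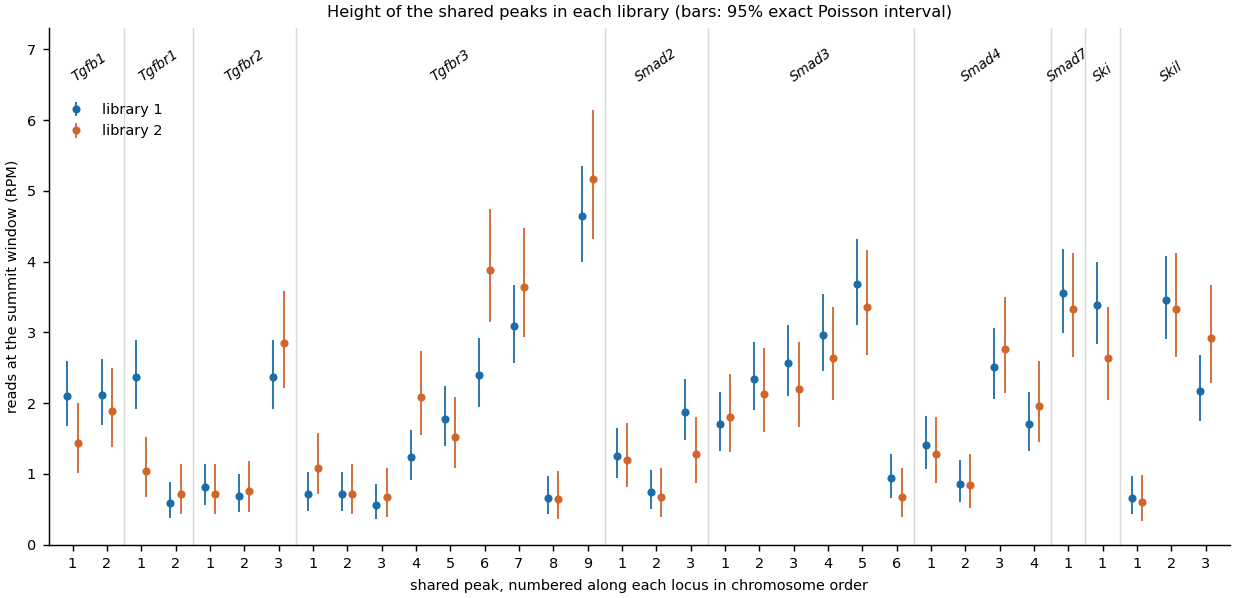
Height of each of the 34 shared peaks in RPM (y axis), in library 1 (blue) and library 2 (orange), with 95% exact Poisson intervals as bars; peaks are numbered along each locus in chromosome order (x axis). The intervals of the libraries overlap at 32 of the 34 peaks, and the highest pair of points, at 4.64 and 5.17 RPM, is the peak upstream of *Tgfbr3*.

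*Smad3*, a receptor-activated Smad that binds DNA, is transcribed from the minus strand of chromosome 9, between positions 63646767 and 63757994. All 6 of its shared peaks were in intron 1, at distances of 6.44 to 83.1 kb from the gene start. The tallest, 12 kb after the start, held 149 reads in library 1, 3.68 RPM (3.11 to 4.32), and 84 reads in library 2, 3.37 RPM (2.68 to 4.17), at the 97.8 percentile. The next in height, at 19.4 kb, reached 2.96 and 2.64 RPM and held AP-1 but no GATA letters. The remaining 4 peaks also had overlapping intervals between the libraries. The peaks at 36.9 and 38.8 kb reached 2.57 and 2.35 RPM in library 1 and 2.20 and 2.12 RPM in library 2. Each lies inside the 5-kb stretch around the other, so its reads are counted in the other's local background. Their folds ranged from 2.80 to 3.48, and how far the neighbour lowered them was not tested. The most distal, at 83.1 kb, reached 1.70 and 1.80 RPM with GATA letters 4 bp from the summit. The lowest, at 0.938 and 0.681 RPM, lay 473 bp before the start of another *Smad3* transcript, which makes *Smad3* one of the members with a promoter peak, and had neither GATA nor AP-1 letters.

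*Smad2*, the other receptor-activated Smad, is transcribed from the plus strand of chromosome 18, between positions 76241580 and 76310963, and had a lower tallest peak than *Smad3*. The tallest, in intron 1 at 13.8 kb, reached 1.88 RPM (1.48 to 2.35, 76 reads) in library 1 and 1.28 RPM (0.877 to 1.81, 32 reads) in library 2. A peak 17980 bp upstream reached 1.26 and 1.20 RPM, with 56.5% of its summit window in repeats, and another in intron 1 reached 0.741 and 0.681 RPM. All 3 had overlapping intervals between the libraries. The interval of the tallest *Smad2* peak lay below that of the tallest *Smad3* peak in both libraries.

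*Smad4*, the partner of both, is transcribed from the minus strand of chromosome 18, between positions 73639009 and 73703780. Its tallest peak, in intron 4 and 30.4 kb after the start, reached 2.52 RPM (2.05 to 3.06, 102 reads) in library 1 and 2.76 RPM (2.15 to 3.5, 69 reads) in library 2, with GATA letters 4 bp from the summit. It was 7.33-fold and 6.37-fold over the local background. A peak 4.72 kb upstream reached 1.70 and 1.96 RPM and held 2 GATA matches and 1 AP-1 match. The other shared peaks, downstream of the gene and in intron 10, reached 1.41 and 0.864 RPM in library 1 and 1.28 and 0.841 RPM in library 2. The *Smad4* locus had the largest share of 200-bp windows with no read in either library, 11.3%, and its longest stretch without a read, 6.27 kb in intron 1, was 99.6% repeat sequence. Reads without a unique position had been removed, so occupancy could not be read there. Such stretches of over 1 kb were present in 5 of the 10 loci, the others being *Tgfbr1*, *Tgfbr3*, *Smad2* and *Ski*.

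*Smad7*, the inhibitory Smad, is transcribed from the plus strand of chromosome 18, between positions 75367529 and 75395935. It had a single shared peak, but a tall one, in intron 3 and 10.2 kb after the start. The height was 3.56 RPM (3.0 to 4.19, 144 reads) in library 1 and 3.33 RPM (2.65 to 4.12, 83 reads) in library 2, at the 97.7 percentile, with 1 GATA match 33 bp from the summit. The peak was 5.66-fold and 5.80-fold over the local background, with exact Poisson p-values (one-sided) of 4.8e-59 and 1.6e-35. Library 1 alone gave 4 more peaks in this locus.

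The corepressors differed in where their peaks lay. *Skil* is transcribed from the plus strand of chromosome 3, between positions 31095058 and 31122577. It had 2 tall peaks in intron 2. The first, 3.69 kb after the gene start and 1917 bp after the start of another *Skil* transcript, reached 3.46 RPM (2.91 to 4.08, 140 reads) and 3.33 RPM (2.65 to 4.12, 83 reads) in libraries 1 and 2, and is the promoter peak of this gene. The second, at 10.1 kb, reached 2.17 RPM (1.74 to 2.68) and 2.92 RPM (2.29 to 3.68). It rose highest of the 34 over its surroundings, 7.51-fold and 8.11-fold, and held neither GATA nor AP-1 letters within 100 bp of its summit. A low peak 19.4 kb upstream, at 0.667 and 0.601 RPM, held 2 GATA matches. *Ski* is transcribed from the minus strand of chromosome 4, between positions 155154075 and 155222592 and had no shared peak in its body. Its single shared peak lay 3625 bp past the end of the gene and reached 3.38 RPM (2.84 to 4.0, 137 reads) in library 1 and 2.64 RPM (2.05 to 3.36, 66 reads) in library 2. The nearest protein-coding start to that peak, 63.8 kb away, belonged to *Morn1*, not to *Ski*, whose own start was 72.1 kb away.

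GATA letters were present within 100 bp of the summit at 25 of the 34 peaks (73.5%), against 70.9% of all shared peaks. This share is close to the background. AP-1 letters were present at 9 peaks (26.5%), against 12.3%. Both kinds were present at 7 peaks and neither at 7, against 8.20% and 25.0% of all shared peaks. AGATAA was the commonest of the 30 GATA matches, with 19, followed by TGATAA with 6, AGATAG with 3 and TGATAG with 2. The nearest GATA match lay at a median of 31.5 bp from the summit, and within 50 bp at 18 peaks. Among the 13 peaks at or above the 90th percentile 11 had GATA and 4 had AP-1 letters, while among the 10 peaks below the median of all shared peaks 4 had GATA and 2 had AP-1 letters. Over all shared peaks the shares with GATA letters were 76.1% and 69.3% in these classes, and those with AP-1 letters 20.01% and 9.32%.

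**Figure D3:**
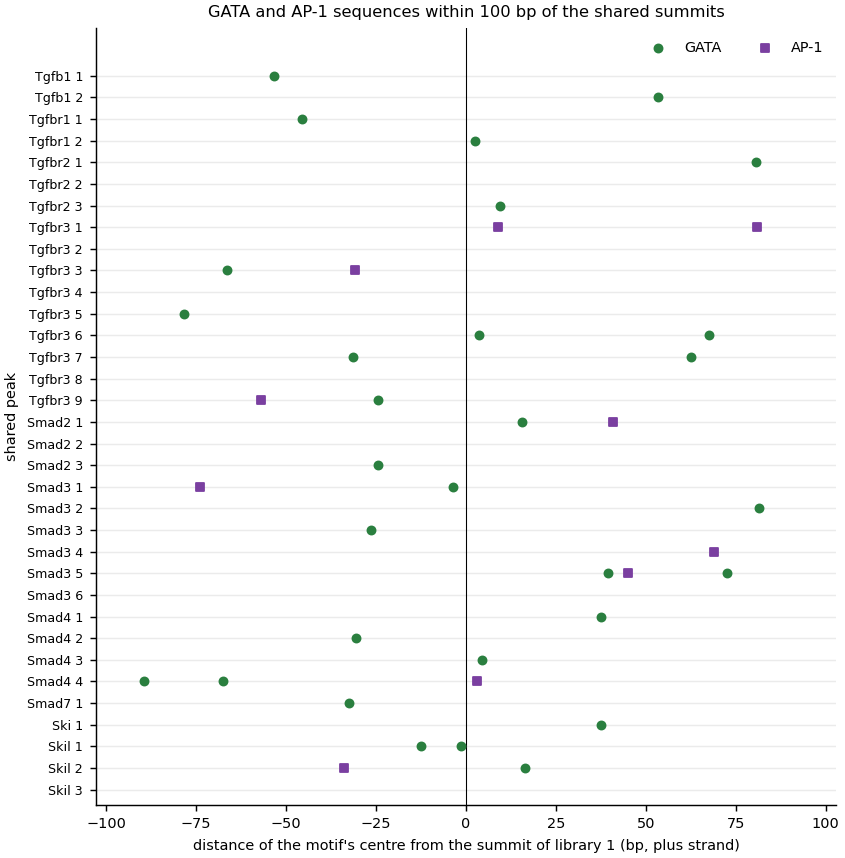
Position of GATA and AP-1 letters relative to the summit in bp (x axis) at each of the 34 shared peaks (y axis, 1 line per peak). The nearest GATA match is within 50 bp of the summit at 18 of the 25 peaks that have one, and AP-1 matches are present at 9 peaks.

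The libraries differed at 8 of the 34 peaks (two-sided exact binomial test of the reads over the whole peak against the libraries' depths, adjusted p below 0.05 over all 23806 shared peaks), against 15.2% of all shared peaks. The test sets 2 single libraries against counting error alone, so a call says that they differ by more than that, not by more than replicates usually do. A taller peak gives the test more reads. The member peaks were taller, with a median lower height of 1.48 RPM against 0.801 RPM over all shared peaks. The shares called are therefore not directly comparable. Library 2 was higher at 4 of the 8, against 26.2% of the differing peaks over the genome. The 4 were the upstream peak of *Tgfbr3*, its peaks at 29.8 and 81.3 kb, and the peak of *Skil* at 10.1 kb. It was lower at the upstream peak of *Tgfb1*, the tallest peaks of *Tgfbr1* and *Smad3*, and the peak of *Ski*. The ratio of library 2 to library 1 ranged from 0.472 at *Tgfbr1* to 1.70 at *Tgfbr3*, with a median of 0.890, and the median over all shared peaks was 0.883. Scaled by that overall median, 5 peaks differed, against 11.1% of all shared peaks. The peaks of *Tgfb1*, *Smad3* and *Ski* were then no longer among them.

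**Figure D4:**
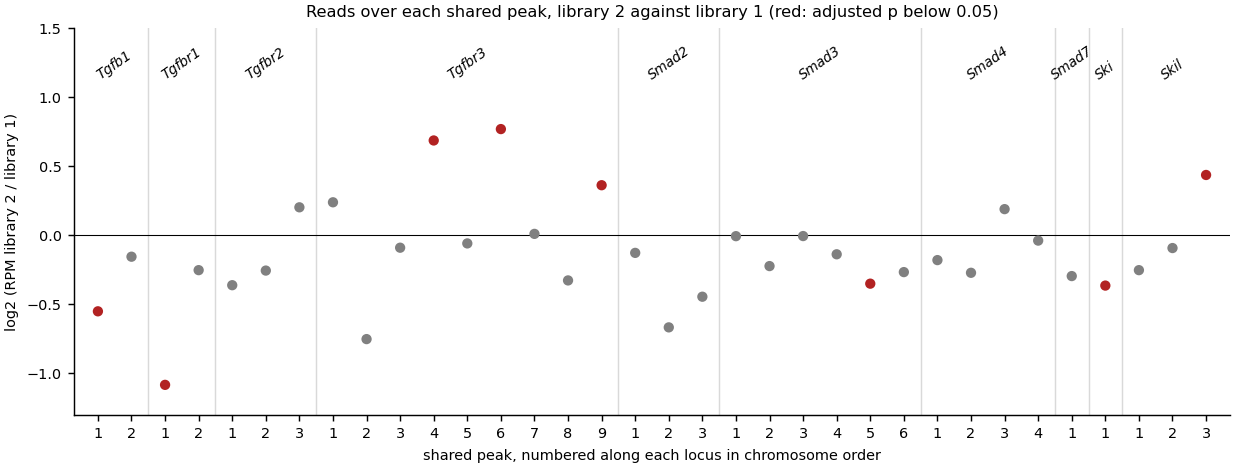
Log2 ratio of depth-scaled reads over the whole peak, library 2 against library 1 (y axis), for the 34 shared peaks numbered along each locus (x axis); red points have an adjusted p below 0.05. Of the 8 red points 4 lie above 0 and 4 below, and the lowest is the peak of *Tgfbr1* with a ratio of 0.472.

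Reads at the gene starts varied among the members. In the 2-kb stretch centred on the start, 7 of the 10 genes exceeded the median of all protein-coding genes in library 1 and all 10 exceeded it in library 2. *Tgfbr1* was lowest in library 1, at 0.938 RPM (34.9 percentile), and *Smad2* lowest in library 2, at 1.24 RPM (52.4 percentile). *Tgfbr2* was highest in both, at the 89.0 and 91.5 percentiles, and *Tgfb1*, *Tgfbr3* and *Skil* followed in library 2 at the 87.7, 87.1 and 86.0 percentiles. Library 2 was higher at 9 of the 10 starts, *Ski* being the exception at 2.02 RPM in library 1 and 1.60 RPM in library 2. The median over all protein-coding genes was likewise higher in library 2, at 1.20 RPM against 1.14 RPM in library 1. The share of all genes with a higher start in library 2 was not counted, so the 9 are no result about the members.

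Of 44 other genes of TGF-β signalling and the related activin and BMP branches, listed by role, 36 had a shared peak in the locus (81.8%) and 13 a promoter peak (29.5%), against 54.8% and 14.5% of all protein-coding genes. Among ligands and genes of latency, which keep TGF-β inactive or release it, 9 of 10 had a shared peak and 5 a promoter peak: *Tgfb2*, *Ltbp2*, *Ltbp4*, *Nrros* and *Furin*. *Nrros*, which tethers latent TGF-β to the cell surface, had one of the taller peaks, in its intron 1, at 3.97 RPM in library 1 and 4.77 RPM in library 2. Among receptors and coreceptors 8 of 9 had a shared peak and 5 a promoter peak: *Acvr2a*, *Acvr2b*, *Bmpr1a*, *Bmpr2* and *Fkbp1a*. The first 4 of these encode receptors of the activin and BMP branches. Smads and adaptors had a shared peak at 5 of 8 genes, close to the share over all genes, and a promoter peak at *Smad5*, a Smad of the BMP branch. Ubiquitin ligases and corepressors had one at 7 of 8 and a promoter peak at *Tgif1*, and TGF-β responsive genes at 7 of 9 with a promoter peak at *Id3*.

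The tallest peak of these other genes lay nearest to the gene's own start for 27 of the 36 and to another gene's start for 9, among them 4 of the 5 tallest. The peak in the locus of *Eng*, the coreceptor endoglin, reached 5.43 and 5.53 RPM in libraries 1 and 2 and lay nearest to *Fpgs*. That of *Ltbp2*, a latent TGF-β binding protein, reached 4.62 and 4.37 RPM and lay nearest to *Npc2*. *Pmepa1*, a TGF-β-induced inhibitor of Smad signalling, had 3.97 and 3.93 RPM nearest to *Zbp1*, and *Itgae*, the αE integrin chain that TGF-β induces in T cells, had 3.70 and 3.89 RPM nearest to *Haspin*. The 8 genes without a shared peak were *Lrrc32*, *Bambi*, *Smad6*, *Smad9*, *Tab1*, *Trim33*, *Id2* and *Gzmb*. At this depth their Gata3 occupancy was not detectable in both libraries, which does not show that it is absent.

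**Figure D5:**
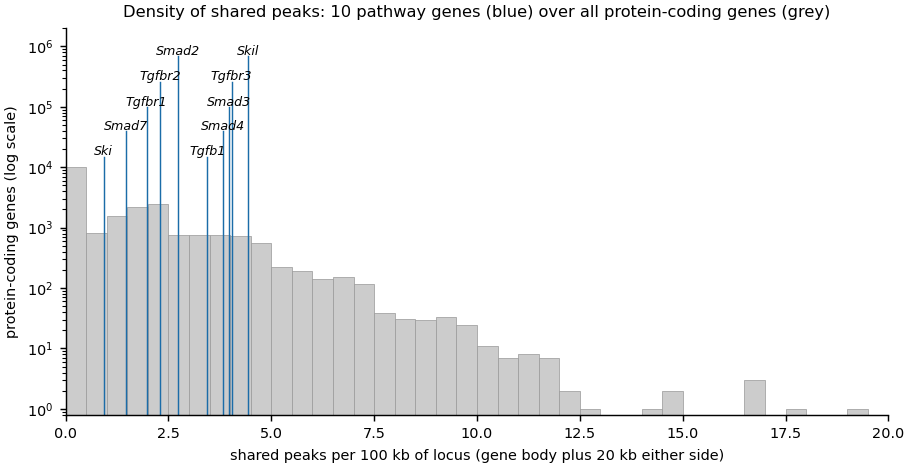
Shared peaks per 100 kb of locus (x axis) over all protein-coding genes, with the number of genes on a log scale (y axis, grey bars) and the 10 TGF-β pathway genes as blue lines. *Skil* is highest of the 10 at 4.44 and *Ski* lowest at 0.922, and 9 of the 10 lie above the median gene.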

How the data were processed

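The authors aligned single reads of the 2 libraries to GRCm38 and removed reads without a unique position. The submitters' processing notes name Bowtie2 2.3.5.1 and MACS2 2.1.2, and no peak list was used here. The deposited score of each read is its mapping quality (22 to 44), not a measure of binding. How repeat reads were removed is not given in the sources used here.

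Reads on chromosomes 1 to 19, X and Y were moved 100 bp downstream on their own strand, and 200-bp windows set every 50 bp were counted. Significant windows within 100 bp were joined, and a peak was given to a locus by its summit in library 1. The 5-kb and 10-kb means include the peak's own reads. Peaks were called over the whole genome. Peak calling was also run on simulated counts of 1 chromosome with planted sites. Those counts were drawn from a Poisson distribution, so the run does not show how many calls in real reads are false. Genes came from GENCODE M21. Of the 8 genes with the tallest peaks, the sequences of 5 are shown and those of 3 are not reported here. All 10 members were named, with genes whose start lay nearest to a summit, the other pathway genes with a promoter peak or 1 of the 5 tallest peaks, and 4 TH2 genes. *Lrrc32*, *Bambi*, *Smad6*, *Smad9*, *Tab1*, *Trim33*, *Id2* and *Gzmb* were named after their values were seen. The members, the pathway list and the tests were chosen with earlier results of these data known. Alternatives changed the threshold, window, read shift, mapping quality, overlap rule, depth, locus, promoter, motif distance and scaling. Python 3.11.15, NumPy 2.4.6, SciPy 1.17.1, pysam 0.24.0 and Matplotlib 3.10.9 were used.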

Additional observations from a re-analysis of the deposited data

How the results depend on the processing

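The 34 shared peaks became 15 at a q of 1e-10, and 14 when at least 5-fold over the local background was required. Those thresholds left 5154 and 6365 shared peaks in the genome. The promoter count of 2 genes became 1 with either threshold, 1 with 100-bp windows and 1 with promoters cut to 1 kb. It rose to 3 with wider windows or no read shift. The count of peaks with GATA letters, 25, became 12 with either threshold. Peaks that differed between the libraries went from 8 to 5 with scaling by the median ratio. Called in a single library, without replicate 1 or without replicate 2, the peaks numbered 38 and 72, the genes with a promoter peak 2 and 6, and the peaks with GATA letters 24 and 44. The number of members with a peak was 8 at a q of 1e-10, without *Tgfbr1* and *Smad2*, 7 at 5-fold, without *Ski* as well, and 9 with the gene body only. It was 10 under each other alternative. With a library left out this follows largely from the definition, as a shared peak is called in each library. Under changed peak calling or promoter width, the shares over all genes and all peaks were not counted. The counts of members, promoters and GATA letters under those settings therefore cannot be set against a background. In all 10 peak-calling settings 13 of the 34 peaks were kept, among them the tallest peak of 7 genes, the exceptions being *Tgfbr1*, *Smad2* and *Ski*. The 2 settings with a library left out could drop none of the 34, since each was called in both libraries. At equal depth, after thinning of library 1, 33 of the 34 peaks were kept. No paired analysis was possible because both libraries belong to the same condition.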

Other observations

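Beside the shared peaks, 38 peaks in the 10 loci were called in library 1 only and 4 in library 2 only. The former were 52.8% of the library 1 peaks in these loci, and over the genome 66.8% of library 1 peaks were not shared. Library 2 had 38 peaks in these loci beside 34 shared, and 28204 over the genome beside 23806 shared. The peaks called in library 1 only were low, from 0.296 to 0.889 RPM with a median of 0.555 RPM. Library 2 had a median of 0.280 RPM at the same places. It was read at the summits of library 1, where it had not been called. Its lower values there follow largely from that choice and are no separate result. Of the 38 peaks called in library 1 only, 26 lay in introns, 6 upstream and 6 downstream. GATA letters within 100 bp of the summit were present at 19 of them, beside 67.6% of the peaks called in library 1 only over the genome. This difference was not tested. *Tgfbr2* and *Tgfbr3* held 6 each and *Smad3* 5. *Ski*, without a shared peak in its body, had 4 of them in intron 1, at 0.420 to 0.642 RPM in library 1 and 0.160 to 0.321 RPM in library 2. *Smad7* had 4 as well, 1 of them in intron 1 at 0.691 RPM in library 1 and 0.280 RPM in library 2. The 4 peaks of library 2 alone, at *Tgfbr1*, *Smad4*, *Ski* and *Skil*, reached 0.481 to 0.801 RPM, against 0.198 to 0.395 RPM in library 1. Here the lower values of library 1 follow largely from the same kind of choice.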
